A study of Homo sapiens with 4 samples.

Results

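The genes described here carry out or control the last steps by which glucose carbon leaves the cell as lactate or enters the mitochondrion as pyruvate. They were named as a list of 10 symbols and found by gene name in the expression tables. All 10 of the 10 were present among 58288 genes, and each was also found in the GRCh37 annotation used for the ChIP-seq peaks. The material was HK2, a human cell line that was derived from kidney proximal tubule and immortalized. Every library came from cells given 50 μM FG-4592 (roxadustat), which blocks the HIF prolyl hydroxylases and so keeps HIFα proteins from being degraded, for 6 h according to the methods of the study. There were 2 RNA-seq libraries and 2 ChIP-seq replicates made with an antibody to HIF1α. Untreated cells were not analysed here. The values are therefore levels and positions under FG-4592, with no fold change, and the labels do not say whether replicates came from separate cultures.

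Lactate dehydrogenase interconverts pyruvate and lactate, and its subunits are encoded mainly by *LDHA* and *LDHB*. Lactate crosses the plasma membrane through monocarboxylate transporters, of which SLC16A1 (MCT1) is widely expressed and SLC16A3 (MCT4) is typical of strongly glycolytic cells. Pyruvate enters the mitochondrion through a carrier that contains MPC1 and is oxidized by the pyruvate dehydrogenase complex, whose E1 alpha subunit, PDHA1, is switched off when the kinases PDK1 to PDK4 phosphorylate it. *LDHA*, *SLC16A3* and *PDK1* are textbook targets of HIF1 in many cell types.

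Of the 10 genes, 3 had a HIF1α peak within 1 kb of an annotated start site in both ChIP-seq replicates: *LDHA*, *SLC16A3* and *PDK1*. In each of these 3 genes a peak of replicate 1 overlapped a peak of replicate 2. *PDK3* had a promoter peak in replicate 1 alone. No promoter peak was found at *LDHB*, *SLC16A1*, *PDK2*, *PDK4*, *PDHA1* or *MPC1* in either replicate. The count was thus 4 of 10 in replicate 1, against 8.27% of 12969 expressed genes and 2.5% of all 55862 genes common to both annotations. In replicate 2 it was 3 of 10, against 20.9% of expressed genes and 9.72% of all genes. For both replicates together it was 3 of 10, against 2.72% of expressed genes and 0.779% of all genes, and 1.39% of expressed genes had overlapping peaks of both replicates. That count of 3 fell to 1, *LDHA*, for peaks with the centre outside exons, and to 0 for peaks with no exon base. A peak across an annotated start always holds exon bases, so the *LDHA* and *PDK1* peaks could not pass the rule of no exon base. The share of other genes was not counted under these 2 rules. The 2 whole lists also differed: 33.0% of peak centres in replicate 1 and 79.3% in replicate 2 lay in exons. Of replicate 1 peaks, 20.4% overlapped a replicate 2 peak, and of replicate 2 peaks, 1.96% overlapped a replicate 1 peak. An expressed gene here is one with an FPKM (sequenced fragments per unit of transcript length and of library size) of at least 1 in both RNA-seq libraries.

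The DNA just before the start sites is shown for the 4 genes with a promoter peak and for 3 of the genes without one, because the sequence ACGTG or GCGTG is the core of the hypoxia response element that HIF binds. Each sequence is the 150 bases before the start of the canonical transcript on GRCh37, written 5′ to 3′ on the strand of the gene. ACGTG and GCGTG on either strand are in capitals, so the other strand appears as CACGT or CACGC, and the palindrome CACGTG counts once on each strand. The windows are chr11:18415960-18416109 for *LDHA*, chr17:80186768-80186917 for *SLC16A3*, chr2:173420668-173420817 for *PDK1* and chrX:24483253-24483402 for *PDK3*, all on the plus strand.
LDHA: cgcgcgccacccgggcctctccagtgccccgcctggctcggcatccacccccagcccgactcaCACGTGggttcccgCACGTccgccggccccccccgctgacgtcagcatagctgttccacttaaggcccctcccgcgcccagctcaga
SLC16A3: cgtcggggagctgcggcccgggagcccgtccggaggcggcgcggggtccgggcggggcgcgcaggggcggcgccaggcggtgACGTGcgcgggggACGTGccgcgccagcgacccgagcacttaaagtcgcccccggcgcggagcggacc
PDK1: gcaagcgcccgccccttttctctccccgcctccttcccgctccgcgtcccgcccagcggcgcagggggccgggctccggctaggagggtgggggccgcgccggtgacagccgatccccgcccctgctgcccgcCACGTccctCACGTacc
PDK3: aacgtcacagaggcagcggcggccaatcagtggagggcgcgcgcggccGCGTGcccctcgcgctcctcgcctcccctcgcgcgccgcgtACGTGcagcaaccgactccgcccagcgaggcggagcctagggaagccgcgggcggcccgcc
For comparison, the windows without a peak are chr17:48172565-48172714 on the plus strand for *PDK2*, and chr12:21810777-21810926 and chr7:95225829-95225978 on the minus strand for *LDHB* and *PDK4*.
PDK2: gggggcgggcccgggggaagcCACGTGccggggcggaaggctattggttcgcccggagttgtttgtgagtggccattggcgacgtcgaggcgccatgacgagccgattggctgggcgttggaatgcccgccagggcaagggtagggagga
LDHB: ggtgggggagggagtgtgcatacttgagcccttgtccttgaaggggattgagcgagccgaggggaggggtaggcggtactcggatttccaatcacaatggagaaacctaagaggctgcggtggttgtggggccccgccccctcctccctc
PDK4: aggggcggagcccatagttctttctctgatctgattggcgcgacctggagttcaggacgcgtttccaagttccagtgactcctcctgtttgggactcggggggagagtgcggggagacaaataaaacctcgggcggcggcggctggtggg

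The promoters of *LDHA*, *SLC16A3* and *PDK1* each held a pair of ACGTG cores on the same strand. In *LDHA* both were read on the strand opposite to the gene, and their first printed bases lay at positions -87 and -73 from the start, 14 bases apart. The first of them is also part of a CACGTG palindrome. In *SLC16A3* the cores lay at -68 and -55 on the strand of the gene, 13 bases apart. *PDK1* had them at -17 and -8 on the opposite strand, 9 bases apart, and the starts of some other *PDK1* transcripts lie further upstream, inside the window shown. *PDK3* had 1 GCGTG at -102 and 1 ACGTG at -61. Of the genes without a peak, *PDK2* held a single CACGTG palindrome at -129, while the windows of *LDHB* and *PDK4* held no core. *SLC16A1*, *PDHA1* and *MPC1* each had 1 GCGTG and no ACGTG.

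Over all 10 genes, 8 had ACGTG or GCGTG in this window, against 44.5% of 12847 expressed genes with an annotated canonical start. ACGTG was present in 5 of the 10, against 16.3%. A pair of ACGTG on 1 strand, with starts no more than 15 bases apart, was present in 3 of the 10, against 0.413%, or 53 genes. The pair and its spacing were chosen as a measure after the sequences of *LDHA*, *SLC16A3* and *PDK1* had been seen, so that these 3 support nothing about it. Of the 50 other expressed genes with the pair, 4 (8%) had overlapping promoter peaks of both replicates, against 1.35% of 12787 without it. A promoter peak in replicate 1 stood at 14 of the 50 (28%), against 8.20%. The 4 were *CTDP1*, *EIF4A3*, *SIAH2* and *ZNF292*, which are named because they share the pair and not for their levels. A match of letters does not show that a site is bound, and its absence from 150 bases says nothing of other positions.

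At *LDHA* the peak of replicate 1 (chr11:18415776-18416315, 540 bp) lay across the start of transcription, and that of replicate 2 (chr11:18415970-18416205, 236 bp) lay wholly inside it. Their centres were 65 and 23 bp upstream of the canonical start at position 18416110. The nearest core to the centre of the replicate 1 peak was 6 bp away, and the peak held 7 core matches in 5 separate stretches. In the replicate 2 peak the nearest core was 48 bp from the centre, with 5 core matches in 4 stretches. Replicate 2 also had a second peak in the gene, chr11:18428646-18429418, with its centre in exon 8 of 8. It held no core, and replicate 1 had no peak there.

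Measured from the canonical start, *PDK1* had the best centred of the shared peaks. The peak of replicate 1 (chr2:173420512-173421122, 611 bp) had its centre 1 bp upstream of the canonical start, and that of replicate 2 (chr2:173420597-173421047, 451 bp) 4 bp downstream of it, in exon 1. The pair of cores printed above lay 5 bp and 10 bp from these centres, measured to the middle base of the nearest core. The peak also covered the start of *PDK1-AS1*, a transcript on the opposite strand, so that it cannot be assigned to 1 of these genes by position. In replicate 2 a further peak of 2724 bp, chr2:173460645-173463368, had its centre in exon 11 of 11.

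*SLC16A3* differed from these genes in where its shared peak lay. A peak of replicate 1 alone, chr17:80186709-80186992, lay across the canonical start and had its centre 68 bp upstream of it, over the pair of cores shown above. The shared peak lay further into the gene: chr17:80188727-80189254 in replicate 1 and chr17:80188790-80189197 in replicate 2, with centres 2072 and 2075 bp downstream of the canonical start, in intron 1. It counted as a promoter peak through another annotated start, 854 bp from the peak of replicate 1 and 911 bp from that of replicate 2. All bases of this peak (100% in both replicates) lie in annotated exons, although the canonical transcript has an intron there. The middle of this peak carried its own pair of cores, shown in the 151 bases around the centre of the replicate 1 peak, chr17:80188915-80189065, on the plus strand.
SLC16A3 intron 1: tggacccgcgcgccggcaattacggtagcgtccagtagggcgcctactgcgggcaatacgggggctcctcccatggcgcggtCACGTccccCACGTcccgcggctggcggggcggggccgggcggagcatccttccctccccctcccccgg
Both cores were read on the opposite strand, and their first printed bases lay 7 and 16 bp after the centre, 9 bases apart as in *PDK1*. With the canonical start as the only start site, *SLC16A3* had a promoter peak in replicate 1 alone, and the count for both replicates was 2 of 10 in place of 3. It was also 2, again without *SLC16A3*, within 500 bp of any start site and within 1 kb of the most upstream one. The share of expressed genes was not counted under these definitions, and the 2.72% above holds for 1 kb of any start site.

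*PDK3* had its replicate 1 peak at chrX:24483171-24483532, across the canonical start, with the centre 52 bp upstream. The nearest core was 7 bp from that centre. In replicate 2 the nearest peak to any *PDK3* start was 35473 bp away. *PDK4* had no peak in the gene in either replicate, and the nearest ones lay 1521043 bp (replicate 1) and 174750 bp (replicate 2) from its start sites. *PDK2* had a replicate 2 peak 4574 bp from its nearest start, on exon bases of the neighbouring gene *ITGA3*, and the nearest in replicate 1 was 2592023 bp away.

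**Figure D1:**
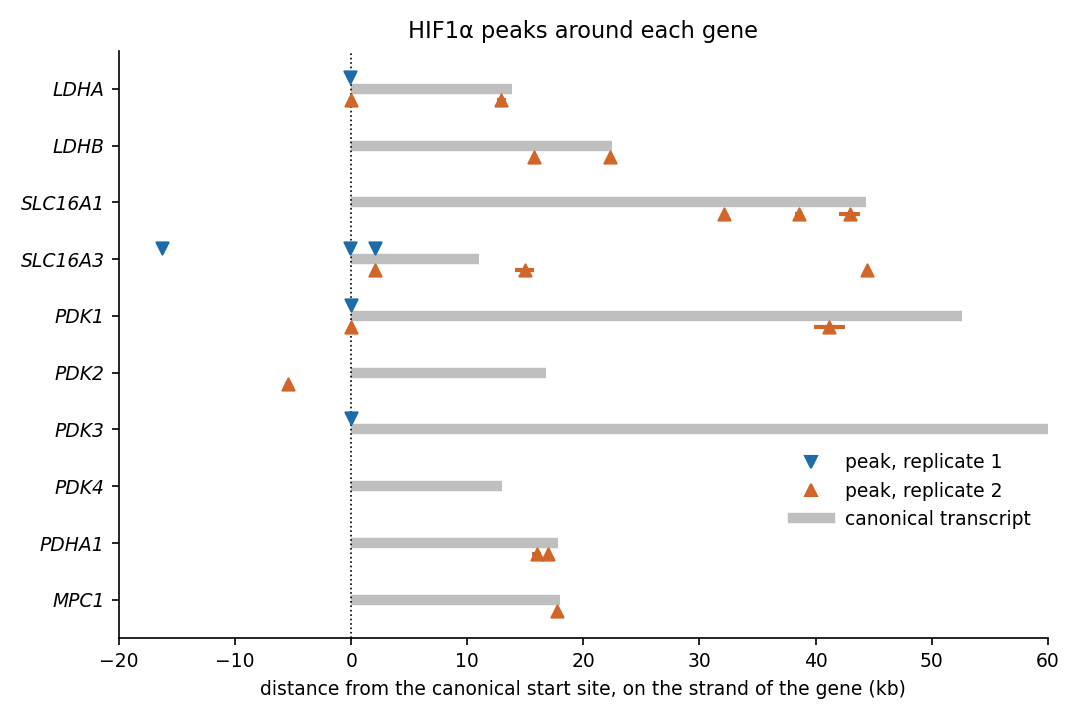
Position of HIF1α peaks around the 10 genes, in kb from the canonical start site on the strand of the gene; downward triangles are centres of replicate 1 peaks, upward triangles those of replicate 2, coloured lines their widths and grey bars the canonical transcripts, of which that of *PDK3* runs past the right edge. Peaks of both replicates stand together at *LDHA*, *PDK1* and, 2072 to 2075 bp into the gene, at *SLC16A3*, while peaks of replicate 2 alone stand in the last exons of 6 genes.

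Peaks on exons outside the promoters were found in replicate 2 alone among the 10 genes. A peak touched an exon outside the promoter in 0 of the 10 genes in replicate 1, against 0.308% of expressed genes, and in 6 of 10 in replicate 2, against 38.7%. These 6 were *LDHA*, *LDHB*, *SLC16A1*, *PDK1*, *PDHA1* and *MPC1*. The same 6 of the 10 genes had a replicate 2 peak with its centre in the last exon of the canonical transcript. Of expressed genes of at least 2 exons, 41.2% had such a peak. In replicate 1 it was 0 of 10, against 0.14%. *LDHB* showed exon peaks of replicate 2 at chr12:21788311-21788683 in exon 8 of 8 and at chr12:21794877-21795104 in exon 5. In *SLC16A1* they were in exon 5 of 5 (chr1:113455015-113456762, 1748 bp) and in exon 4 (chr1:113459863-113460623), and *PDHA1* had 2 in exon 11 of 11. The share of 6 in 10 was thus read against a background in which such peaks are common, and their source was not tested.

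Response element cores were then sought near the centres of these peaks. All 5 promoter peaks of the 10 genes in replicate 1 had ACGTG within 100 bp of the centre, as did all 3 in replicate 2. The 1 other replicate 1 peak inside or within 20 kb of the genes, chr17:80170466-80170814 near *SLC16A3*, had GCGTG near its centre and no ACGTG. Over whole lists, ACGTG or GCGTG lay that close to the centre in 86.1% of replicate 1 peaks and 26.6% of replicate 2 peaks, and ACGTG alone in 70.3% and 13.3%. Among the 14 other replicate 2 peaks inside or within 20 kb of these genes, 3 had a core near the centre and 1 had ACGTG. The pair of ACGTG, a measure drawn from these same genes, lay within 100 bp of the centre in 4 of the 5 promoter peaks of replicate 1, against 3.73% of its list, and in all 3 of replicate 2, against 0.228%. Since the pair was chosen from the sequences of these genes, the contrast with the lists supports nothing about it. The promoter peak without a pair was that of *PDK3*.

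The RNA-seq libraries were checked against the labelled cell type first. Of 14 proximal tubule markers, 2 were expressed: *GGT1*, a gene with closely similar copies, at 62.3 and 58.5 FPKM, and *SLC5A2* at 2.59 and 1.70. *LRP2*, *SLC22A6*, *SLC22A8* and *HNF4A*, which define differentiated proximal tubule, were listed at 0 in both libraries. The summed level of the 14 markers was 65.4 and 60.8 FPKM, nearly all of it *GGT1*. Epithelial and kidney lineage markers were expressed in 6 of 8 cases, led by *KRT19* (184 and 177 FPKM), with *PAX8* at 121 and 114, while *CDH1* and *PAX2* stayed below 1 FPKM. Of 6 mesenchymal markers 3 were expressed, led by *FN1* (2268 and 2179 FPKM). None of 3 leukocyte, 3 endothelial, 2 podocyte and 5 distal tubule or collecting duct markers was expressed. The cells are therefore called HK2 cells below, since only 2 of the 14 proximal tubule markers reached 1 FPKM in both libraries.

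All 10 genes were expressed, against 22.5% of the 58288 genes, and their levels spanned from 2.94 to 697 FPKM. The FPKM of a gene is the sum of those of its transcripts. The values average over all cells of a culture, in which fewer expressing cells and less RNA per cell cannot be told apart. The tables give no read counts, and the coverage of all transcripts times their length came to 4442 Mb in library 1 and 4202 Mb in library 2, the only measure of depth.

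By FPKM summed over transcripts, the lactate dehydrogenase genes were the most abundant of the 10. *LDHA*, whose subunit predominates in glycolytic tissue, had 696 FPKM in library 1 and 697 in library 2 (mean 696 ± 0.485, SD, n = 2), the rank of 56 among all genes. *LDHB*, whose subunit predominates in heart, had 428 and 439 FPKM (433 ± 8.07, SD, n = 2) and a rank of 102. Together they made up 76.4% of the summed FPKM of the 10 genes. The ratio of *LDHA* to *LDHB* was 1.63 in library 1 and 1.59 in library 2, and their values did not overlap. It turned with the measure, to 0.44 with protein-coding transcripts alone and to 0.758 by median coverage per base of the canonical exons. Other lactate dehydrogenase genes were low, with *LDHC* at 1.78 and 3.02 FPKM and *LDHD*, *LDHAL6A* and *LDHAL6B* below 1.

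Lactate export was represented mainly by *SLC16A3*, at 221 and 213 FPKM (217 ± 5.71, SD, n = 2, rank 203). *SLC16A1* stood at 43.3 and 46.6 FPKM (44.9 ± 2.37, SD, n = 2, rank 1318). The ratio of *SLC16A3* to *SLC16A1* was 5.11 in library 1 and 4.57 in library 2. *BSG*, the chaperone that takes both transporters to the membrane, had 275 and 261 FPKM, or 1.23 times the level of *SLC16A3*. *SLC16A7* (MCT2) had 1.16 and 1.98 FPKM, *SLC16A8* was below 1, and the sodium-coupled carriers *SLC5A8* and *SLC5A12* were listed at 0. *CSNK1D*, which overlaps *SLC16A3* on the other strand, had 48.3 and 49.8 FPKM, and whether strand was kept in counting is not given in the sources used here.

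At the entry to mitochondrial oxidation the levels were lower. *PDHA1* had 34.3 and 34.4 FPKM (34.4 ± 0.0559, SD, n = 2, rank 1860). *MPC1* had 8.24 and 11.2 FPKM (9.71 ± 2.08, SD, n = 2, rank 6520), while its partner *MPC2* had 34.7 and 35.7, a ratio of 4.21 and 3.20. The other pyruvate dehydrogenase subunits *PDHB*, *DLD*, *DLAT* and *PDHX* had means of 23.3, 19.0, 10.8 and 7.73 FPKM, and the testis form *PDHA2* was listed at 0. Genes for subunits of the phosphatases that reverse the action of the kinases were also read. *PDP1* had 36.0 and 35.1 FPKM, *PDP2* 3.40 and 1.36, and *PDPR*, for a regulatory subunit, 42.3 and 38.7. *CS*, for citrate synthase, had values of 45.5 and 24.0 that were far apart.

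The kinase genes, which hold pyruvate back from oxidation, stood in the lower part of the range. *PDK3* had 16.7 and 18.6 FPKM (17.7 ± 1.36, SD, n = 2) and *PDK1* had 14.9 and 16.2 (15.6 ± 0.932, SD, n = 2). *PDK2* had 7.89 and 5.03 (6.46 ± 2.03, SD, n = 2), and *PDK4* came last with 2.94 and 2.96. In sum the 4 kinase genes had 42.5 and 42.8 FPKM, and *PDHA1*, the substrate gene, stood at 0.808 and 0.803 times their sum. This ratio changed with the measure, to 1.02 in both libraries by mean coverage per base over the exons of the canonical transcripts, and to 0.959 and 1.04 with their first and last exons left out. Their ranks were 3934 for *PDK3*, 4439 for *PDK1*, 8267 for *PDK2* and 10846 for *PDK4*. *PDK1-AS1*, which overlaps *PDK1* on the other strand, had 8.90 and 7.86 FPKM, and the limit on strand given for *SLC16A3* applies here too.

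**Figure D2:**
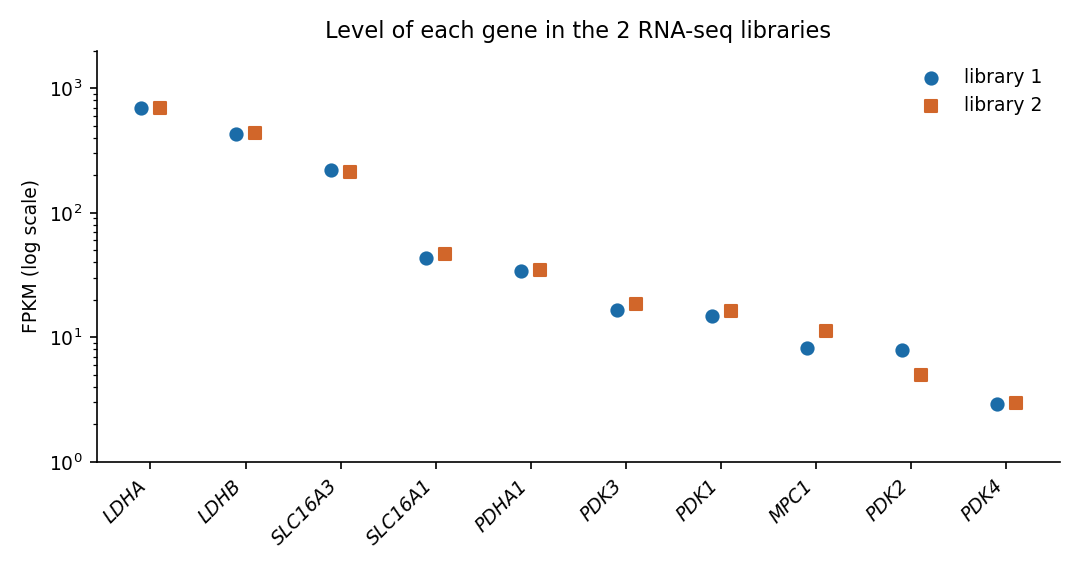
FPKM of each of the 10 genes (log scale) in RNA-seq library 1 (circles) and library 2 (squares), ordered by mean. *LDHA* and *LDHB* stand at the top, from 428 to 697, and *PDK4* at the bottom, at 2.94 and 2.96, and the largest gaps between libraries are those of *PDK2* (7.89 and 5.03) and *MPC1* (8.24 and 11.2).

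From the highest to the lowest mean of FPKM summed over transcripts, the order was *LDHA*, *LDHB*, *SLC16A3*, *SLC16A1*, *PDHA1*, *PDK3*, *PDK1*, *MPC1*, *PDK2* and *PDK4*. No neighbours in this order overlapped between libraries. For 2 pairs, however, the gap was smaller than the SD of either gene. The lower *PDK3* value of 16.7 stood beside the higher *PDK1* value of 16.2, and the lower *MPC1* value of 8.24 beside the higher *PDK2* value of 7.89. These pairs are not separated beyond their spread. The order also depended on the measure, with 5 places changed by protein-coding transcripts alone and 5 by coverage over internal exons. With protein-coding transcripts alone it began with *LDHB*, *SLC16A3* and *LDHA*, and *PDK1* stood above *PDK3*. The log2 ratio of library 2 to library 1, with a pseudocount of 1, was -0.56 for *PDK2* and 0.40 for *MPC1*, and lay between -0.05 and 0.15 for the other 8 genes. Over the 13467 genes whose mean FPKM reached 1, the absolute log2 ratio had a median of 0.13, and 4.26% were as far apart as *PDK2* and 9.50% as far as *MPC1*.

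The FPKM of a gene adds up transcripts of unequal length and class, and for several of these genes the sum depended on which transcripts StringTie credited. In *LDHA*, transcripts that GENCODE 44 marks as protein coding carried 26.9% of the FPKM in library 1 and 25.5% in library 2. A single retained-intron transcript, ENST00000375710, carried 55.3% and 55.8%. Its first exon, of 1285 bp, which contains the retained intron, had a coverage per base of 19.2 and 21.0. Its later exons, which lie on exons that spliced *LDHA* transcripts also use, had between 1302 and 7054. In *LDHB*, by contrast, 96.3% and 94.8% of the FPKM lay on protein-coding transcripts.

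With protein-coding transcripts alone the mean was 182 FPKM for *LDHA* and 414 for *LDHB*, so that their ratio turned from 1.61 to 0.44. *SLC16A3*, at 198 FPKM on that count, then also stood above *LDHA*. Averaged over the exons of the canonical transcript, with the coverage of all transcripts added, *LDHA* had a coverage per base of 2913 and 2729 and *LDHB* of 2491 and 2396. Over internal exons only, the values were 4106 and 3771 for *LDHA* and 3017 and 2880 for *LDHB*, a ratio of 1.36 and 1.31. Coverage along *LDHA* was uneven, from 289 in exon 1 to 9274 in exon 3 of library 1, and its median per base, 1975 and 1833, lay below the 2615 and 2411 of *LDHB*. Which of these genes was the higher thus changed with the measure. Of 10 pseudogene copies of the genes, the highest was *LDHAP4* at 2.70 and 3.12 FPKM, so that reads shared with copies leave the level of *LDHA* uncertain by an amount that was not tested.

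**Figure D3:**
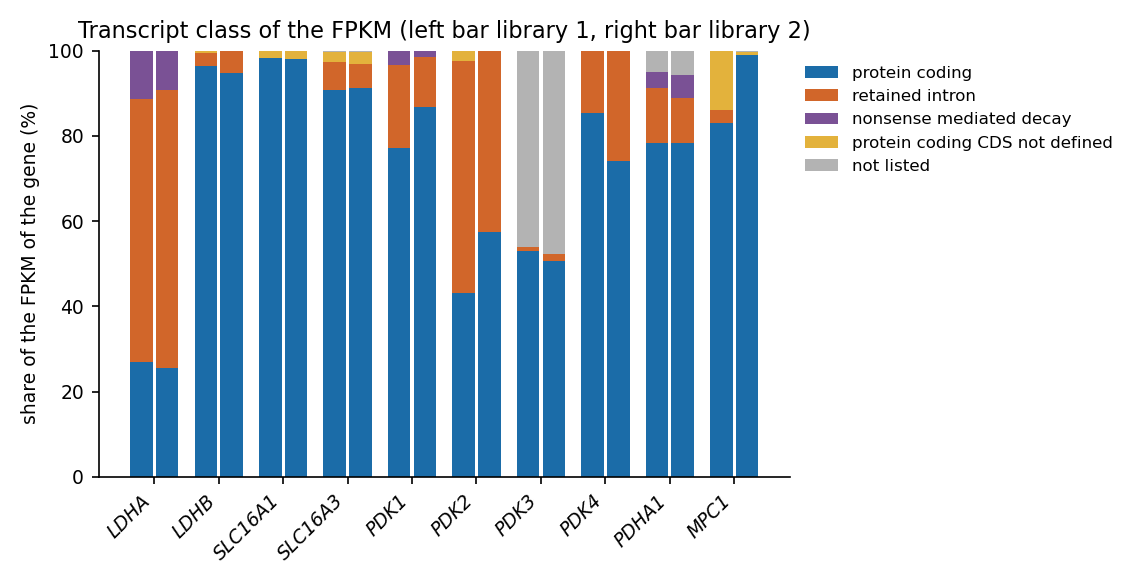
Share of the FPKM of each gene (%) carried by transcripts of each GENCODE 44 class, with library 1 as the left bar and library 2 as the right bar of each pair. Protein-coding transcripts carry 26.9% and 25.5% in *LDHA* and over 90% in *LDHB*, *SLC16A1* and *SLC16A3*.

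Other genes had mixed classes as well. Protein-coding transcripts carried 98.3% and 98.1% of the FPKM of *SLC16A1* and 90.8% and 91.1% of that of *SLC16A3*, whose canonical transcript alone held 76.9% and 79.8%. In *PDK2* they carried 43.0% and 57.5%, with 54.5% and 42.5% on retained-intron transcripts. In *PDK3* a share of 46.1% and 47.7% lay on transcripts absent from the GENCODE 44 annotation used here. For *MPC1* the protein-coding share was 83.1% and 98.9%, and for *PDHA1* it was 78.5% and 78.3%.

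The order of the kinases changed with the transcripts and exons counted. With protein-coding transcripts alone the mean was 12.8 FPKM for *PDK1* and 9.14 for *PDK3*, a ratio of *PDK3* to *PDK1* of 0.719 in place of 1.13. That count drops the unlisted *PDK3* transcript ENST00000441463 (7.70 and 8.87 FPKM), whose class is not known here, and with unlisted transcripts kept beside the protein-coding ones the ratio was 1.37, on the same side as by summed FPKM. The canonical transcript of *PDK1* has 14193 bp, of which 12841 bp are the last exon. That exon had a coverage per base of 30.8 and 31.8, while exons 2 to 10 together had 218 and 197. For *PDK3* the internal exons had 99.0 and 98.9, for *PDK2* 68.6 and 42.7, and for *PDK4* 19.3 and 11.99. Over internal exons *PDK1* was 2.20 and 1.99 times *PDK3*, whereas by summed FPKM *PDK3* was 1.12 and 1.15 times *PDK1*. The share of *PDK1* among the 4 kinase genes was 35.2% and 37.9% by FPKM and 53.8% and 56.1% over internal exons. *PDK4* was lowest on both measures, at 6.91% and 6.90% by FPKM and 4.77% and 3.42% over internal exons. Internal exons were taken up as a measure after the coverage had been seen.

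**Figure D4:**
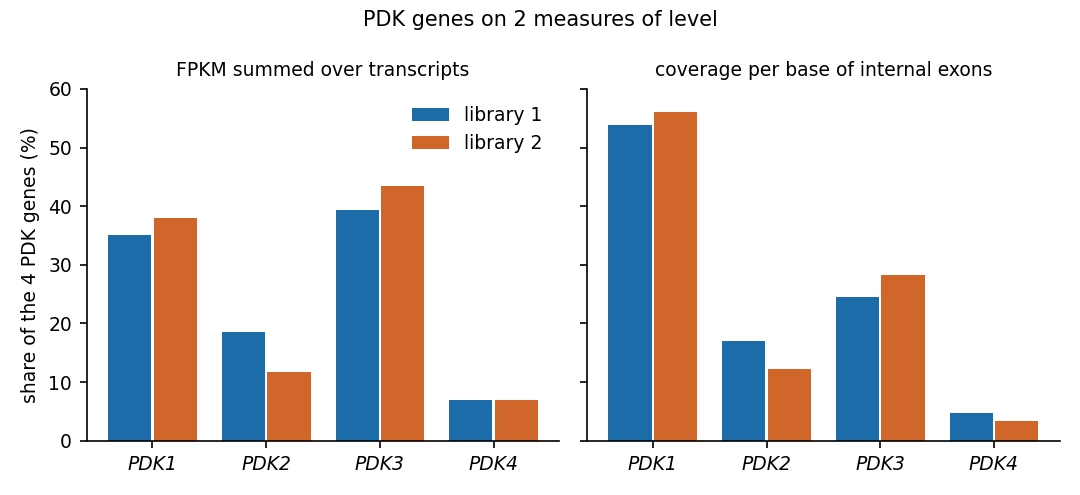
Share of each PDK gene in the sum of the 4 (%), by FPKM summed over transcripts (left) and by mean coverage per base of the internal exons of the canonical transcript (right), in library 1 and library 2. *PDK3* is the highest by FPKM (39.3% and 43.5%) and *PDK1* is the highest over internal exons (53.8% and 56.1%).

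**Figure D5:**
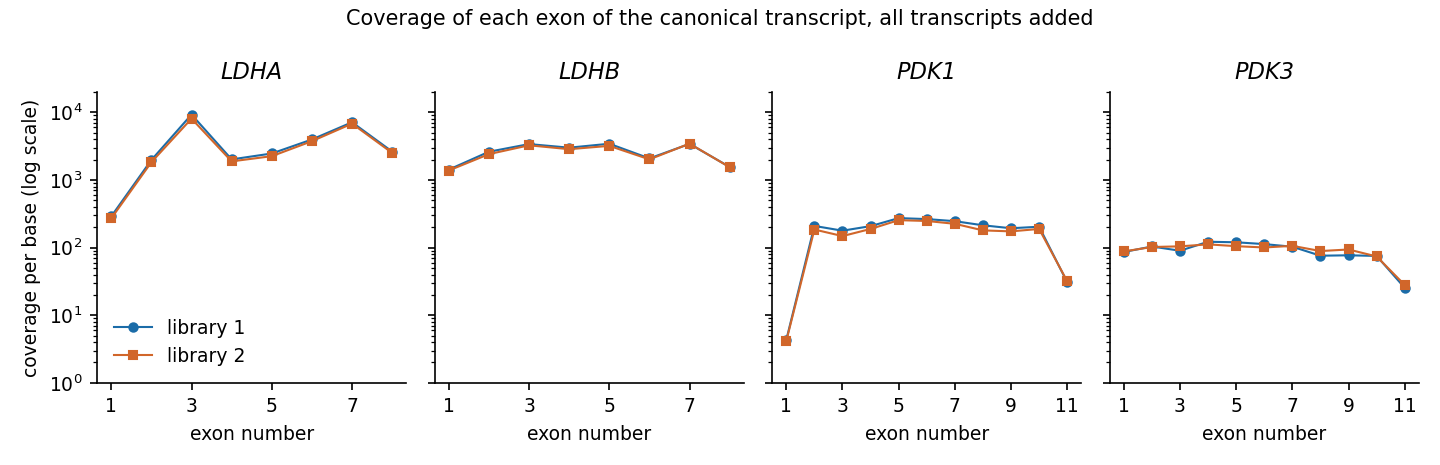
Mean coverage per base (log scale) of each exon of the canonical transcripts of *LDHA*, *LDHB*, *PDK1* and *PDK3*, with the coverage of all transcripts of the gene added, in library 1 (circles) and library 2 (squares). The last exon of *PDK1* lies at 30.8 and 31.8 against 218 and 197 over its internal exons, and exon 1 of *PDK1* lies at 4.31 and 4.16.

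*PDHA1* also had a low first exon (7.28 and 8.48) and a long last exon of 2197 bp at 73.8 and 71.4, against 388 and 364 over its internal exons. On internal exons it stood above *SLC16A1*, at 265 and 256, while by FPKM it stood below it. *SLC16A3* had 995 and 896 and kept a ratio of 3.75 and 3.50 to *SLC16A1*. *MPC1* had 104 and 118 on its internal exons, and its last exon had 14.4 in library 1 and 33.9 in library 2.

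The genes of the neighbouring steps were read in the same way. Among 27 other genes of lactate and pyruvate handling, 18 were expressed, and 1, *PDPR*, had overlapping promoter peaks of both replicates. *BSG*, *MPC2*, *DLAT* and *GPT*, which was below 1 FPKM, had a promoter peak in replicate 2 alone, and *PDHX* and *GPT2* in replicate 1 alone. Of 8 upper glycolysis genes, 2 had overlapping promoter peaks (*GPI* and *ALDOA*), and of 11 lower glycolysis genes, 4 (*GAPDH*, *PGK1*, *PGAM1* and *ENO1*). Beside these lists the 10 genes held 3. A promoter peak in both replicates, overlapping or not, stood at 4 of the 8 upper and 5 of the 11 lower glycolysis genes, a larger share than the 3 of 10. No test of the difference between lists was made. *HIF1A*, at 110 and 114 FPKM, and *EPAS1*, at 27.3 and 42.4, had a promoter peak in replicate 2 alone, and *ARNT*, at 7.80 and 8.20, had none.

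The 3 genes with shared promoter peaks stood at very different levels. Expressed genes with a promoter peak in both replicates had a median of 22.0 FPKM (n = 353), those with none in either had 8.30 (n = 9534), and all expressed genes 9.71. For genes with overlapping promoter peaks the median was 22.5 FPKM (n = 180). Whether the level of a gene bears on how often a peak is called there was not tested. *LDHA* and *SLC16A3* lay far above these medians, and *PDK1*, at 15.6, lay between them. Nearest to *LDHA* in log2 mean FPKM among genes with promoter peaks in both replicates were *MIF* (683 and 649 FPKM), *P4HB* (618 and 609) and *PKM* (852 and 747). For *SLC16A3* they were *SMS* (208 and 216 FPKM), *SCD* (243 and 238) and *PFKP* (244 and 247), and for *PDK1* they were *ZCCHC3* (15.4 and 15.8), *TMEM263* (12.9 and 18.2) and *SNX8* (16.2 and 14.7). This likeness is one of level in 2 libraries only.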

How the data were processed

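For the ChIP-seq, the authors aligned reads to hg19 with Bowtie2 and called peaks with MACS2 in each replicate; the deposited lists hold positions and no score. For the RNA-seq, the authors used HISAT2 and StringTie 1.3.3 with GENCODE 27, and the deposited tables give coverage, FPKM and TPM per transcript, with no read counts. These tables carry GRCh38 positions although the methods name hg19, so they were joined to the GRCh37 annotation (GENCODE 44 mapped to it) and to the peaks by Ensembl identifier, never by position.

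Here FPKM was summed per gene, peaks within 1 kb of any annotated start site were called promoter peaks, and ACGTG and GCGTG were sought on both strands of GRCh37. Peaks on contigs without a matching sequence name and on the mitochondrial chromosome, 28 in replicate 1 and 305 in replicate 2, were left out of the core counts, as were 122 expressed genes without a marked canonical transcript. No test was run, since all libraries had 1 treatment and n was 2 for each assay. The depth of the ChIP-seq is unknown. Code was tested on simulated data (Python 3.11.15, numpy 2.4.6, pandas 2.3.3, matplotlib 3.10.9).

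Genes named are the 10 chosen ones, fixed lists of the same and neighbouring steps, HIF genes, markers, overlapping or copied genes, the 3 genes nearest in level to each gene with promoter peaks in both replicates, and the 5 most abundant genes (*EEF1A1*, *TMSB4X*, *TMSB10*, *FTL* and *GAPDH*, whose means ran from 2855 to 7552 FPKM). *ITGA3* and genes sharing the pair of cores were chosen after their values were seen. The members and lists were chosen with earlier results of these data known. Alternatives covered the unit, the transcripts counted, the minimum FPKM, the pseudocount, the promoter window and start sites, exon bases, the overlap, the core and leaving out each replicate; those using coverage per base, unlisted transcripts and the canonical start, all those for the ratios of *PDK3* to *PDK1* and of *PDHA1* to the kinases, and those of window, start site and exon bases for overlapping peaks were chosen after seeing the data. Protein sequences were not compared.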

Additional observations from a re-analysis of the deposited data

How the results depend on the processing

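The ratio of *LDHA* to *LDHB* turned from 1.61 to 0.44 with protein-coding transcripts only and to 0.758 by median coverage per base of the canonical exons, and was 1.70 with the largest transcript, 1.15 by mean canonical coverage and 1.34 over internal exons. The *LDHA* share of both moved likewise from 61.6% to 30.5%, 43.1%, 63.0%, 53.6% and 57.2%. *SLC16A3* to *SLC16A1* moved from 4.84 to 6.86 with the largest transcript, 4.29 by canonical coverage and 3.63 over internal exons. The *PDK1* share of the kinases moved from 36.5% to 31.8%, 46.5%, 27.8% and 55.0% with the largest transcript, coding transcripts, canonical coverage and internal exons. *PDK3* to *PDK1*, from 1.13, turned to 0.719 with coding transcripts and 0.478 over internal exons, and was 1.35 with the largest transcript, 1.80 by mean and 3.14 by median canonical coverage. With transcripts absent from GENCODE 44 kept beside the coding ones, it was 1.37, so that the turn to 0.719 came from leaving those out, and the *PDK1* share was 35.7%, while *LDHA* to *LDHB* was 0.441 and the *LDHA* share 30.6%. *PDHA1* to the sum of the kinases, from 0.806, turned to 1.20 with the largest transcript and 1.02 by canonical coverage, and was 0.983 with coding transcripts, 0.999 over internal exons and 0.550 by median coverage. Which transcripts and exons enter the sum is part of each measure; no other cause was tested. TPM gave the same ratios as FPKM.

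Promoter peaks in replicate 2 rose from 3 genes to 6 within 3 kb and 8 within 10 kb. Shares over all genes were counted for 1 kb of any start site only. Counts under other windows, start sites and exon rules thus have no background, and are not read as a result about the 10 genes. Within 500 bp, replicate 2, both and overlapping each gave 2, without *SLC16A3*, as did the most upstream start site, with 3 in replicate 1. With start sites of transcripts of mean FPKM of at least 1, replicate 1 stayed at 4, and replicate 2, both and overlapping at 3. With peaks free of exon bases, 0 genes remained in replicate 1, replicate 2, both, and as overlapping peaks. Peaks that lie across an annotated start cannot pass that rule. With the peak centre outside exons, replicate 2, both and overlapping each gave 1 (*LDHA*). Without 1 ChIP-seq replicate the count was 3 or 4. Without 1 RNA-seq library the ratio of *LDHA* to *LDHB* was 1.59 to 1.63, *SLC16A3* to *SLC16A1* 4.57 to 5.11, the *PDK1* share 35.2% to 37.9%, *PDK3* to *PDK1* 1.12 to 1.15 and *PDHA1* to the kinases 0.803 to 0.808. All 10 genes were expressed under each minimum but 5 FPKM, which left 9.

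The lists give no score, so a stricter peak threshold could not be run. No paired analysis was possible because no groups were compared and no test was made. With 2 libraries an SD is imprecise, read counts and ChIP-seq depth are unknown, and replicate 1 lists 1689 peaks against 16953 in replicate 2. How far this difference in list length, and those in exon share and overlap given above, bear on the counts was not tested.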
